A study of Mus musculus with 59 samples.

Results

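The haematopoietic cytokine receptors described here were Flt3, Kit, Csf1r, Epor, Csf3r, Csf2ra, Csf2rb, Il3ra and Il7r, 9 genes of the 51810 listed in the gene table of Kit+Lin-Sca-1+ (KLS) cells at 3 weeks. They were chosen by name, as receptors for the growth factors that act on blood progenitors, and all 9 were found in each of the 10 gene-level tables of normalized counts. These tables held 59 RNA-seq libraries of sorted mouse bone marrow cells, between 3045852 and 30136629 gene reads deep.

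Cytokine receptors pass signals for survival, division and lineage choice from growth factors to blood progenitors. Flt3, Kit and Csf1r are receptor tyrosine kinases, which carry their own kinase domain and bind Flt3 ligand, stem cell factor and macrophage colony-stimulating factor. The others belong to the type I cytokine receptor family, which has no kinase of its own and signals through JAK kinases and STAT factors. Epor and Csf3r act as pairs of 1 chain and bind erythropoietin and granulocyte colony-stimulating factor. Csf2ra and Il3ra are the binding chains for GM-CSF and IL-3, both of which share the beta chain Csf2rb, and Il7r is the IL-7 receptor alpha chain of lymphoid progenitors. Several of these genes are known targets of Pu.1, the ETS transcription factor encoded by Spi1. The histone H3.3 chaperone Daxx, the other deleted gene, helps to keep repeats and other chromatin silent.

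The study asked how deleting Daxx, alone or with Pu.1, affects haematopoietic stem and progenitor cells. All groups were Cre +/- mice on a C57BL/6 background, so the WT controls carried the recombinase too. The alleles were Daxx +/+ Cre +/- (WT), Daxx F/F Cre +/- (Daxx-KO) and Daxx F/F with Pu.1 F/F, also Cre +/- (DKO). A separate Pu.1 line had Pu.1 +/+ Cre +/- (WT) and Pu.1 F/F Cre +/- (Pu.1-KO) mice. Heterozygous Daxx +/F samples were present among the LT-HSCs only. Deletion used Mx1Cre, an interferon-inducible recombinase that is started with pI:pC and is not restricted to blood cells, in the mice studied 3 and 24 weeks post induction, in the Pu.1 line and in the multipotent progenitors, which were taken at 3 weeks. Long-term haematopoietic stem cells (LT-HSCs) came from RosaCreER mice 3 days after tamoxifen, a recombinase expressed in most cell types. The labels of the remaining KLS cells and granulocyte-monocyte progenitors (GMPs) give neither mouse line nor time, and these are called untimed below. The labels do not say whether they are the transplanted cells that the study's methods describe. Those methods give RNA-seq of KLS cells and GMPs at 3 weeks, at 24 weeks and, in duplicate, from irradiated recipients of transplanted bone marrow. The untimed libraries are the only KLS and GMP libraries without a time in the labels. No age is given in the labels.

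There were 2 WT and 2 Daxx-KO libraries in each untimed table, 3 Daxx-KO, 3 WT and 2 DKO libraries in the KLS and in the GMP table at 3 weeks, and 2 WT and 2 Pu.1-KO libraries in each table of the Pu.1 line. The labels name the animals of the KLS libraries at 3 weeks, and the GMP columns were placed by the same animal numbers. In each of these tables, a single WT library carries an animal number that no label gives and was placed by the control ending of the KLS column of that number in a repeat table. The columns of the Pu.1 line were all placed in this way, by the control or treatment ending of a repeat table, since no label gives their numbers. At 24 weeks each table held 2 WT and 4 Daxx F/F libraries, again placed by such endings. By the labels each of these tables comes from 2 WT, 2 Daxx-KO and 2 DKO samples. The column names do not separate Daxx-KO from DKO, so these 4 are described as Daxx F/F with or without Pu.1 F/F. In the Pu.1 line and at 24 weeks, as at 3 weeks, the KLS and GMP columns carry the same animal numbers. Results of the KLS and GMP tables of each set are therefore not independent. The 7 LT-HSC libraries and the 8 libraries of MPP3 and MPP4 (multipotent progenitors biased to myeloid and to lymphoid fates) show no genotype in their column names. By the labels they come from 2 WT, 2 heterozygous Daxx +/F and 3 Daxx-KO samples of LT-HSCs and from 2 WT and 2 Daxx-KO samples of each of MPP3 and MPP4. Every population was sorted as c-Kit+, and LT-HSCs, MPP3 and MPP4 were further gated on Flk2 (the Flt3 protein) and as negative for Il-7Ra. Kit is therefore a gate gene throughout, and Flt3 and Il7r are gate genes in LT-HSCs and multipotent progenitors but not in KLS cells or GMPs.

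Daxx was lower in each Daxx-KO, DKO and Daxx F/F library than in any WT library beside it, for example 55.1 to 102 normalized counts against 423 to 688 in the Daxx-KO and WT libraries at 3 weeks. Spi1 was not lower in every library placed as Pu.1-deleted. In KLS cells at 3 weeks it was at 2993 to 3330 normalized counts in the libraries labelled DKO against 1669 to 2320 in WT, while KLS cells of the Pu.1 line had 1307 to 2920 in the Pu.1-KO libraries against 2080 to 2764 in WT. In GMPs Spi1 was at 2589 to 2707 in Pu.1-KO against 3395 to 3934 in WT, without overlap, and at 3 weeks at 2989 to 3846 in DKO against 3348 to 4604 in WT, with overlap. Directions drawn for DKO and Pu.1-KO below rest on the labels and column names and not on a loss of Spi1 reads. In the untimed KLS table the Daxx-KO libraries stood apart by their gate. Their summed stem cell markers were at 4497 to 4812 normalized counts against 28470 to 29222 in WT and their summed GMP markers at 11951 to 15530 against 692 to 1359, and Ly6a, which encodes the Sca-1 of the gate, was at 474 and 485 against 136 and 114. In the untimed GMP table, Fcgr3, which encodes the CD16 of the gate, was at 19.6 and 87.2 normalized counts in Daxx-KO against 654 and 712 in WT. Fcgr2b, which encodes the CD32 of that gate, was at 1251 and 1426 against 619 and 551, and the gate gene Cd34 at 75.0 and 24.9 against 436 and 556. In the KLS table at 3 weeks the WT library placed by its column ending stood apart from the other 2 WT libraries. Its summed plasma cell markers were at 121452 against 7792 and 3032 normalized counts. Lymphoid priming markers were at 116094 against 12805 and 10103, and GMP markers at 43993 against 4750 and 12722. In plasma cell and lymphoid priming markers it lay within the range of Daxx-KO, at 54273 to 145490 and 71125 to 152440. The DKO sums were higher, at 182409 to 203703 and 153032 to 194603. The single lymphoid priming genes did not follow their sum. Against Daxx-KO, 3 of 6 were called lower in DKO and 0 higher, with a median log2 fold change of -0.85. Against WT, 1 was called lower and 0 higher, with a median of 0.18. The part of these markers in the receptor values was not tested.

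Because Pu.1 binds a purine-rich GGAA core, the 250 bases before the RefSeq start of the receptor genes with a promoter sequence at hand (7 of the 9, all but Csf1r and Csf2rb, and Csf2rb2; build GRCm38.p6) were searched on both strands for the motif GAGGAA, for the motif GGAAGT, for the union GAGGAAGT of both and for the GATA factor motif AGATAA. The capitals mark the match nearest to the start, each window is 30 bases long, and the strand shown is the one on which the motif reads as spelt. Csf2ra had 2 matches, and the other stands in lower case beside the marked one. The 5 windows are those of 4 receptors called in at least 1 of the comparisons that follow, with the paralogue Csf2rb2, and hold an example of each motif found before a receptor.
Flt3, chr5:147400547-147400576, plus strand, 69 bases before the start of a gene on the minus strand: cggttcggctggGGAAGTtgcctggactcc
Csf2ra, chr19:61228419-61228448, minus strand, 2 bases before the start of a gene on the minus strand: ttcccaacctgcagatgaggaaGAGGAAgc
Il7r, chr15:9529908-9529937, plus strand, 43 bases before the start of a gene on the minus strand: gtgccagaaacaGGAAGTctgagcaaaagg
Csf2rb2, chr15:78305871-78305900, plus strand, 161 bases before the start of a gene on the minus strand: ctgacttctctgGAGGAAgcagacacagag
Epor, chr9:21963613-21963642, plus strand, 48 bases before the start of a gene on the minus strand: caggctggggacAGATAAgctacagccacc
GAGGAA was found before Kit, Csf3r, Csf2ra and Csf2rb2 and in 23.3% of all 32851 promoter windows of this length. GGAAGT was found before Flt3, Il3ra and Il7r and in 19.7% of all windows. The union GAGGAAGT, in which the 2 shorter motifs overlap, was in 2.44% of windows and before none of the 7 receptors searched. AGATAA was found before Epor and in 9.99% of windows. These are matches of letters, shared with many promoters. RefSeq starts Csf2ra and Il7r inside the GENCODE span of the gene, so these windows reach into it, and the Flt3 window lies inside the overlapping gene Gm26597.

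In the GENCODE M21 annotation of GRCm38, Flt3 spans chr5:147330741-147400489 and Kit chr5:75574916-75656722. Csf1r lies at chr18:61100598-61132149, Epor at chr9:21958897-21963506 and Csf3r at chr4:126024550-126044440. Csf2ra lies at chr19:61223957-61228429, Csf2rb at chr15:78325752-78353847, Il3ra at chr14:14346275-14356011 and Il7r at chr15:9505788-9530176. Csf2rb has a near-identical neighbour, Csf2rb2 (chr15:78282507-78305721), a mouse beta chain specific to IL-3, and reads can be split between them, so the values of both are uncertain. Flt3 overlaps the antisense gene Gm26597, which reached at most 46.7 normalized counts in any library. Csf1r also overlaps Hmgxb3 and Mir6983, Il3ra overlaps Gm48860 and Csf2rb overlaps Mir7676-2. Whether the counting used strand is not given in the sources used here.

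**Figure D1:**
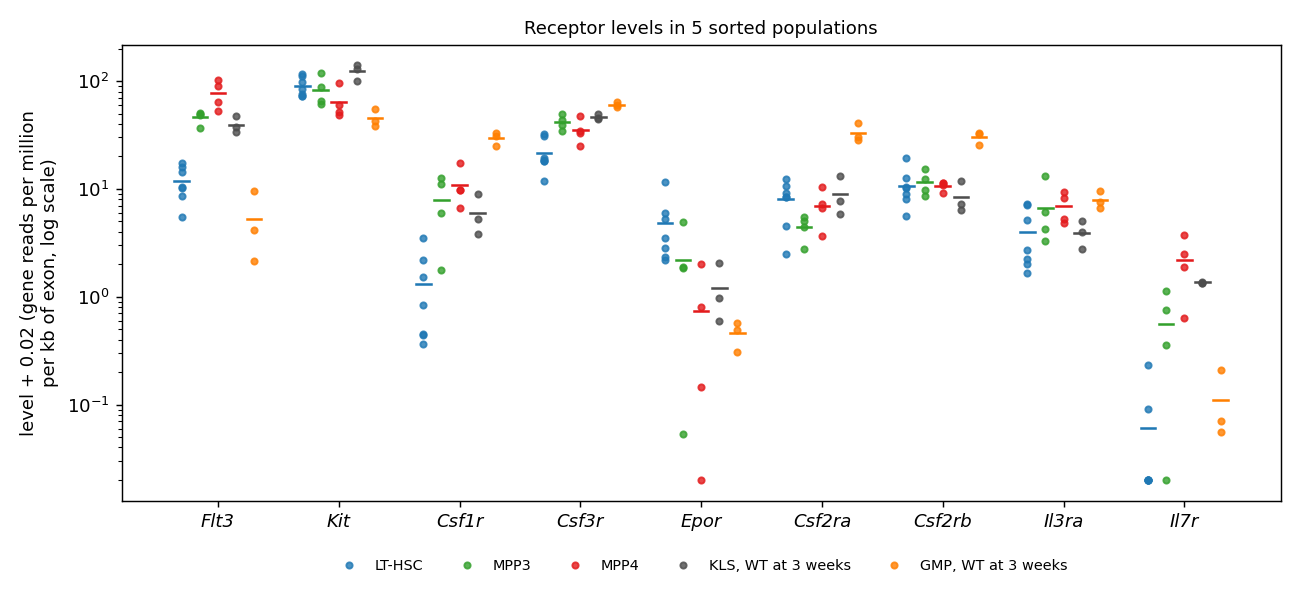
Level of the 9 receptors in 5 populations, as RPKM from the recovered gene reads plus 0.02 on a log axis, with each point 1 library and each bar the group mean. Kit stands highest in LT-HSCs, MPP3 and KLS cells, and by this measure per kilobase of exon Flt3 has the highest mean in MPP4 and Csf3r in GMPs, where Kit leads per kilobase of coding sequence, and Il7r or Epor stands lowest in every population shown.

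The receptors differed widely in level between populations. Levels are given as RPKM, the recovered reads per kilobase of exon scaled by each library's total of gene reads, so that genes can be compared within a library; the tables were normalized separately, so levels set across populations are side by side values. In WT KLS cells at 3 weeks Kit was highest at a mean level of 123 (100 to 140 over 3 libraries), above every other receptor. Csf3r followed at a level of 46.6 and Flt3 at 39.5, and these 2 overlapped. Csf2ra at 8.88, Csf2rb at 8.48, Csf1r at 6.01 and Il3ra at 3.91 formed a chain of overlapping neighbours. Il7r at a level of 1.34 and Epor at 1.18 were lowest and overlapped.

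WT GMPs at 3 weeks had another order. Per kilobase of exon Csf3r, the receptor of the granulocyte growth factor, was highest at a level of 60.3 (57.4 to 63.5), without overlap with Kit at 45.6. Per kilobase of coding sequence the leader was Kit, at 138 (116 to 168) against 86.6 (82.5 to 91.3) for Csf3r, and in untimed WT GMPs Kit led per kilobase of exon too, at 59.7 against 58.1. Kit, Csf2ra at a level of 33.3, Csf2rb at 30.1 and Csf1r at 29.7 overlapped from neighbour to neighbour. Flt3 was at a level of 5.28 (2.13 to 9.59 over 3 libraries), below Il3ra at 7.95 but overlapping it, and Epor and Il7r were last at 0.438 and 0.0913.

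In the 7 LT-HSC libraries Kit was again highest at a level of 89.9. Csf3r at 21.3, Flt3 at 11.8 (5.42 to 17.5), Csf2rb at 10.7, Csf2ra at 8.01, Epor at 4.79 (2.16 to 11.5) and Il3ra at 3.999 followed, each overlapping the next, and Csf1r was at a level of 1.30. Il7r, whose protein was gated out, had a mean level of 0.0408 and was at 0 in 5 of 7 libraries. Kit led in LT-HSCs and in the WT KLS cells of every table, while Flt3 came before Csf3r in the WT KLS cells of the untimed, Pu.1 line and 24-week tables. Counted per kilobase of coding sequence instead of exon, 4 of the 9 receptors took another rank in WT KLS cells at 3 weeks, where Flt3 then came before Csf3r, 2 in GMPs and 4 in LT-HSCs, where Csf2rb then came before Flt3.

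**Figure D2:**
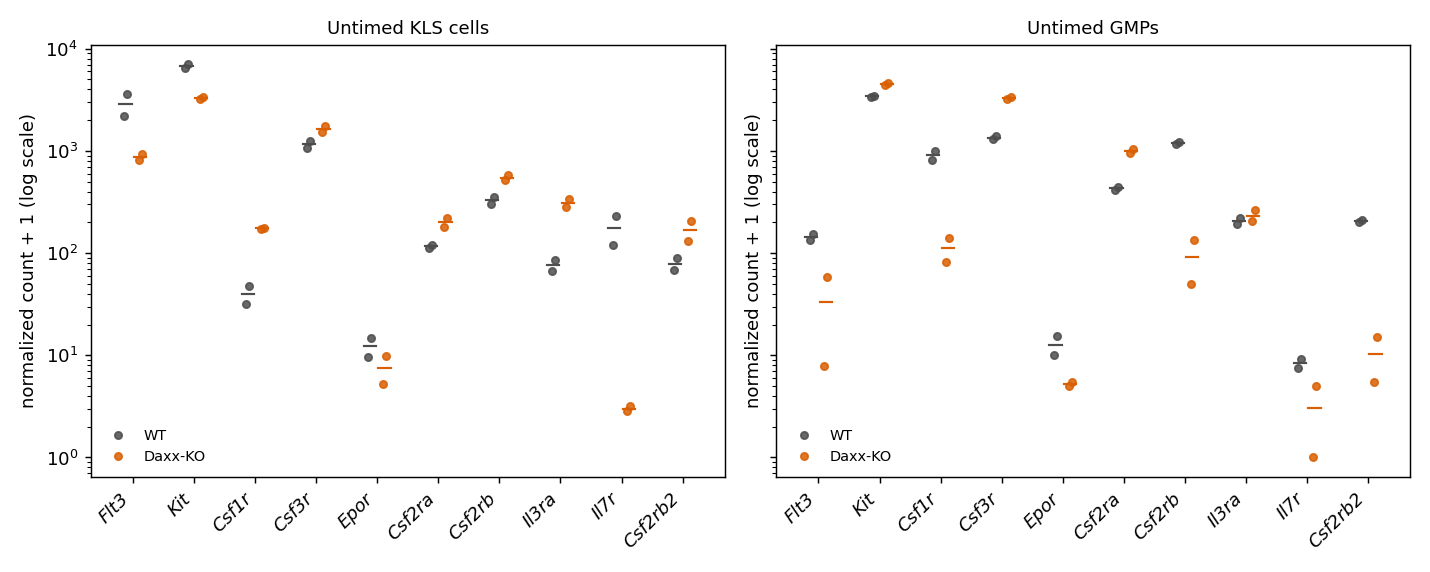
Normalized count plus 1 on a log axis for the 9 receptors and the paralogue Csf2rb2 in untimed KLS cells and untimed GMPs, with each point 1 library, WT in grey, Daxx-KO in orange and bars at the group means. In KLS cells Flt3, Kit and Il7r lie lower in both Daxx-KO libraries and Csf1r and Il3ra higher, and in GMPs Csf1r, Csf2rb and Csf2rb2 lie lower and Csf3r and Csf2ra higher.

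In untimed KLS cells, deletion of Daxx was accompanied by lower transcripts of the receptors of early and lymphoid progenitors and higher transcripts of the myeloid receptors. Flt3, Kit and Il7r were lower and Csf1r, Csf3r, Csf2ra, Csf2rb and Il3ra were higher, so that 8 of the 8 receptors tested passed the limma test (adjusted p under 0.05 over all genes). This table was one with many changes: 23.1% of 13508 genes were called, 10.6% higher and 12.5% lower, and 62.8% of genes had groups that did not overlap. The median absolute log2 fold change was 1.36 over the receptors tested and 0.36 over all genes. Epor was not tested because its mean normalized count was under 10.

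Among the receptor tyrosine kinases, Flt3 was at 2181 and 3591 normalized counts in WT and at 924 and 814 in Daxx-KO. Both Daxx-KO libraries lay below both WT libraries, and Flt3 fell by 1.69 ± 0.20 (SE) on the log2 scale, a mean 3.32 times lower (adjusted p = 0.000603). Kit, the stem cell factor receptor and itself part of the gate, was at 6477 and 7033 normalized counts in WT and at 3400 and 3193 in Daxx-KO. The groups did not overlap, and Kit fell by 1.03 ± 0.10 (adjusted p = 0.000151). Csf1r, the receptor of macrophage progenitors, was at 30.97 and 46.5 in WT and at 172 and 175 in Daxx-KO. It rose 4.47-fold, a log2 fold change of 2.16 ± 0.28 (adjusted p = 0.000932).

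Of the type I receptors, Il3ra had 84.3 and 65.5 normalized counts in WT and 339 and 283 in Daxx-KO. It rose 4.15-fold, by 2.04 ± 0.21 on the log2 scale (adjusted p = 0.000259). Its partner chain Csf2rb was at 351 and 303 in WT and 575 and 514 in Daxx-KO (0.74 ± 0.14, adjusted p = 0.00636), and the paralogue Csf2rb2 at 87.7 and 67.2 against 205 and 129 (1.07 ± 0.28, adjusted p = 0.0263). All 3 chains were thus higher in both Daxx-KO libraries. Csf2ra was at 119 and 112 normalized counts in WT against 221 and 179 (0.78 ± 0.20, adjusted p = 0.0239), and Csf3r at 1258 and 1059 against 1761 and 1543 (0.51 ± 0.12, adjusted p = 0.0181). Il7r showed the widest gap, with 119 and 231 normalized counts in WT and 2.19 and 1.82 in Daxx-KO, which were 2 and 6 reads in the Daxx-KO libraries. It fell by 5.80 ± 0.54 (adjusted p = 0.000131), a value that depends on the added count of 1. Epor was at 13.8 and 8.61 in WT and at 8.75 and 4.24 in Daxx-KO, and the groups overlapped.

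The marker lists moved with these receptors in this table. Of the stem cell markers 7 of 8 were lower, of the GMP markers 6 of 7 higher and of the monocyte and macrophage markers 4 of 6 higher, while plasma cell markers were lower in 5 of 5 (summed normalized counts 567 to 860 in Daxx-KO against 11670 to 22651 in WT). B lineage markers were summed at 148 to 170 in Daxx-KO against 1098 to 2101 in WT, with 4 lower and 1 higher of 5 tested. Rag1 and Ms4a1 of this list were at 0 in both groups, as in every group of all 10 tables. The part of these marker lists in the receptor values was not tested. In bulk samples, fewer cells of a type and less RNA per cell cannot be told apart. Without Daxx-KO library 1 or without library 2, only Kit and Il7r stayed past the threshold, with adjusted p up to 0.257 for the other 6 receptors, and without WT library 2 Csf3r (0.0948) and Csf2ra (0.0635) did not pass. Both also missed the threshold without the filter on low genes (0.0872 and 0.0674), and Csf2ra did with DESeq2 (0.0583).

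The wider cytokine pathway changed in both directions in untimed KLS cells. Of the other cytokine receptors 2 of 23 tested were higher and 11 lower, with a median of -0.67 against 0.03 over all genes. They included the growth hormone receptor Ghr, at 319 to 342 normalized counts in WT and 6.06 to 10.9 in Daxx-KO. Of 11 JAK kinases and STAT factors 3 were higher and 1 lower, and Stat4, a STAT of the IL-12 pathway, fell by 1.32 ± 0.16 (368 to 456 against 913 to 1149). Of 11 genes known to respond to these receptors 3 were higher and 4 lower, among them the cyclin Ccnd2 (199 to 232 against 1431 to 1700) and the survival gene Bcl2 (1454 to 1748 against 3970 to 4346), both lower. Of 14 negative regulators tested 3 were higher and 2 lower, and the STAT inhibitor Socs2 was at 6.06 to 7.66 in Daxx-KO against 72.2 to 77.5 in WT. Of 14 adaptors and kinases 4 were higher and 3 lower, and of 6 ligands tested 1, Il7, was lower.

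In untimed GMPs the granulocyte and GM-CSF binding receptors were higher in Daxx-KO. The macrophage receptor and the beta chains Csf2rb and Csf2rb2 were lower. Csf3r, Csf2ra and Kit rose and Csf1r, Csf2rb and Flt3 fell, 6 of the 7 receptors tested. Again much of the table was called, 33% of 12744 genes, with 16.6% higher and 16.5% lower, and 67.2% of genes had groups that did not overlap. The median absolute log2 fold change was 1.29 over the receptors tested and 0.38 over all genes.

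Csf2rb, the beta chain of the IL-3 and GM-CSF receptors, was at 1172 and 1228 normalized counts in WT and at 132 and 48.9 in Daxx-KO. It fell by 3.88 ± 0.36 on the log2 scale (adjusted p = 7.68e-05). Csf2rb2 went from 209 and 199 normalized counts to 14.2 and 4.49, a fall of 4.49 ± 0.47 (adjusted p = 0.000154). The GM-CSF binding chain Csf2ra moved the other way, from 441 and 416 to 945 and 1052 (1.22 ± 0.11, adjusted p = 6.98e-05). Il3ra was at 191 and 218 in WT and at 262 and 203 in Daxx-KO, and its groups overlapped. So Csf2ra and its beta chain Csf2rb moved in opposite directions in these libraries.

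Csf1r was at 809 and 997 normalized counts in WT and at 140 and 81.2 in Daxx-KO, an 8.17-fold lower mean and a fall of 3.06 ± 0.23 (adjusted p = 3.3e-05). Csf3r, the receptor of neutrophil progenitors, was at 1297 and 1390 in WT and at 3224 and 3335 in Daxx-KO, 2.44 times higher (1.29 ± 0.09, adjusted p = 1.7e-05). Neither gene had overlapping groups. Kit rose 1.32-fold, from 3373 and 3439 to 4580 and 4380 (0.40 ± 0.08, adjusted p = 0.00528), and did not pass without WT library 1 (0.0508). Flt3 was at 133 and 153 in WT and at 56.8 and 6.93 in Daxx-KO, a fall of 2.74 ± 0.73 (adjusted p = 0.0190). The 2 Daxx-KO libraries differed widely from each other, and the call was lost without WT library 1 (0.0969) or 2 (0.130) and with DESeq2 (0.210). Epor (9.04 and 14.3 against 4.06 and 4.49) and Il7r (6.51 and 8.13 against 4.06 and 0) were too low to be tested.

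Neutrophil markers were summed at 35039 to 50478 normalized counts in the Daxx-KO GMPs against 4646 to 6327 in WT, with 4 higher and 1 lower of 6. Mast cell and basophil markers, a lineage that depends on Kit and the IL-3 receptor, were lower in 5 of 5 (256 to 501 against 3362 to 3507), and monocyte and macrophage markers were lower in 4 and higher in 2 of 6. The summed GMP markers were at 67388 to 69035 against 66569 to 66670, although 4 were called higher and 2 lower of 7. The part of these markers in the receptor values was not tested. Along the pathway, 7 of 11 JAK kinases and STAT factors were higher and none lower, among them Stat3, the STAT used by Csf3r, at 2194 to 2693 against 1136 to 1161 (1.08 ± 0.11). Of 14 adaptors and kinases 7 were higher and 1 lower. Of the 22 other cytokine receptors tested 4 were higher and 9 lower, including Il1rl1, the IL-33 receptor of mast cells, at 1.22 to 6.08 against 186 to 204. Of 11 target genes 4 were higher and 3 lower, with Irf8, a monocyte transcription factor, at 177 to 292 against 1350 to 1646. Of 11 negative regulators tested 5 were higher, and of 2 ligands 1, Csf1, was lower (38.5 to 41.6 against 216 to 238).

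**Figure D3:**
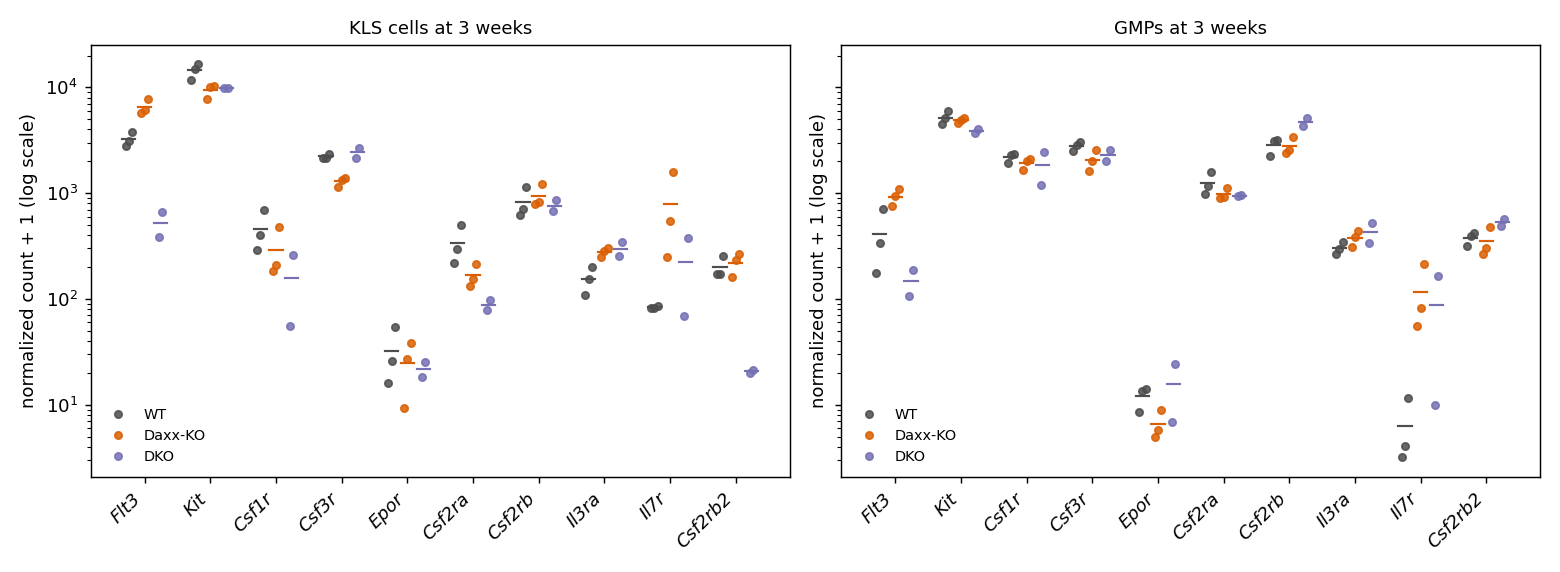
Normalized count plus 1 on a log axis for the 9 receptors and Csf2rb2 in KLS cells and GMPs at 3 weeks, with each point 1 library, WT in grey, Daxx-KO in orange, DKO in purple and bars at the group means. In KLS cells Flt3 separates all 3 genotypes, highest in the 3 Daxx-KO libraries and lowest in the 2 DKO libraries, and Csf2rb2 is lowest in DKO.

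In KLS cells at 3 weeks Flt3 separated the 3 genotypes. The Daxx-KO libraries had 7765, 6176 and 5664 normalized counts, the WT libraries 2761, 3824 and 3090 and the libraries labelled DKO 381 and 670. No library of one genotype overlapped another. The 3 contrasts share libraries, so their values are given side by side and not as independent evidence. In DKO, Flt3 had a log2 fold change of -3.68 ± 0.25 against Daxx-KO (12.4-fold lower, adjusted p = 8.9e-05) and of -2.66 ± 0.25 against WT (6.14-fold lower, adjusted p = 0.000314). The mean of Daxx-KO was 2.03 times that of WT, a log2 difference of 1.02 ± 0.22 that did not pass (adjusted p = 0.140), although it did in a fit of these 2 genotypes alone (0.0486) and with DESeq2 (0.00680).

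Against WT, none of the 9 receptors was called in Daxx-KO by limma, where 0.257% of 15200 genes were called, 0.184% higher and 0.0724% lower. The receptors with non-overlapping groups were 6 of 9, against 18.2% of all genes, and 6 of 9 had an unadjusted p under 0.05, as did 1777 of all genes. edgeR called 0 of the 9 and DESeq2 5, both without the WT library that stood apart. limma without that library also called 0 of the 9, and 137 genes in place of 39. The median log2 fold change of the receptors was -0.41, against 0.00 over all genes, and their median absolute value 0.78 against 0.26.

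Csf3r was at 1152, 1333 and 1403 normalized counts in Daxx-KO and at 2150, 2171 and 2355 in WT, a difference of -0.78 ± 0.13 (adjusted p = 0.0553). Kit was at 10394, 7782 and 10143 against 16527, 15072 and 11867 (-0.62 ± 0.17, adjusted p = 0.246). Both were lower in every Daxx-KO library than in every WT library. Il3ra was at 284, 304 and 250 against 108, 154 and 199 (0.90 ± 0.26, adjusted p = 0.262), and Csf2ra at 154, 215 and 131 against 296, 219 and 498 (-0.96 ± 0.33, adjusted p = 0.340). The binding chains for IL-3 and GM-CSF thus lay on opposite sides of WT, without passing the test. Csf2rb (832, 1220 and 786 against 705, 615 and 1131), Csf1r (184, 476 and 209 against 290, 398 and 691) and Epor (37.3, 26.0 and 8.37 against 15.1, 53.0 and 25.0) overlapped between the groups.

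Il7r was at 549, 1568 and 249 normalized counts in Daxx-KO and at 84.3, 81.2 and 82.0 in WT. The WT libraries were close together and the Daxx-KO libraries spread over a wide range above them, with a mean 9.56 times higher (2.84 ± 0.69, adjusted p = 0.178). B lineage markers moved with it. Their summed normalized counts were 4841, 35951 and 2276 in the same Daxx-KO libraries against 593, 935 and 1077 in WT, with a median log2 fold change of 3.23 and 0 of 8 called, and Rag1 and Ms4a1 at 0 in every group. The library highest in Il7r was also highest in these markers, and their part in the Il7r values was not tested. In the DKO libraries Il7r was at 374 and 67.5 and the B lineage sum at 2441 and 1020.

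**Figure D4:**
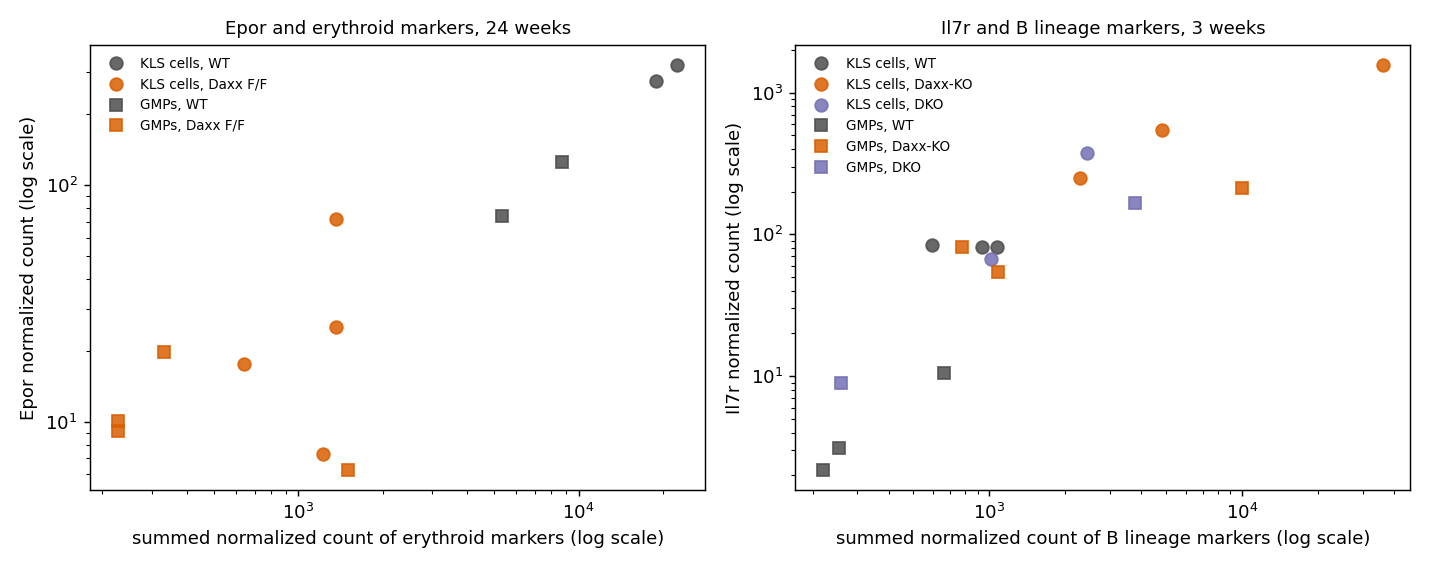
Left, Epor against summed erythroid markers at 24 weeks, and right, Il7r against summed B lineage markers at 3 weeks, all in normalized counts on log axes with each point 1 library of KLS cells or GMPs. On the left the WT libraries lie at the upper right. On the right, within each cell type, they lie to the lower left of the Daxx-KO libraries, while some DKO libraries lie beside WT. The Daxx-KO library with the most B lineage markers, 35951, has the most Il7r, 1568.

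In DKO against WT KLS cells 3 of the 9 receptors were called, Flt3 and Csf2ra lower and Il3ra higher, where 17.6% of all genes were called, 9.24% higher and 8.4% lower. Csf2ra was at 77.6 and 97.3 normalized counts in DKO, below all WT libraries, a fall of 1.86 ± 0.37 (3.86-fold, adjusted p = 0.00899). Without DKO library 1 it did not pass (0.0941). Il3ra was at 343 and 254 in DKO, above all WT libraries (0.98 ± 0.29, adjusted p = 0.0430). This call was close to the threshold and was lost without WT library 1 (0.120) or 2 (0.0964), without DKO library 1 (0.297) or 2 (0.0593) as well as without the filter on low genes (0.0597), with only these 2 genotypes (0.0818) and with a replicate block (0.0512). Without the WT library that stood apart by its markers the 3 were called along with Kit (adjusted p = 0.0364), among 2975 genes in place of 2681.

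Csf2rb was at 853 and 674 normalized counts in DKO, within the WT range, but Csf2rb2 was at 19.2 and 20.2 against 171, 253 and 170 in WT and 263, 232 and 160 in Daxx-KO. Csf2rb2 fell, with a log2 fold change of -3.24 ± 0.33 against WT (10.1-fold lower, adjusted p = 0.000483) and of -3.37 ± 0.33 against Daxx-KO (11.1-fold lower, adjusted p = 0.000310). The IL-3 specific beta chain was thus lower in DKO while the common chain overlapped WT, as far as reads of the 2 copies were assigned correctly. Csf1r was at 54.6 and 257 in DKO, below all WT libraries but with its 2 libraries far apart (-1.85 ± 0.63, adjusted p = 0.0716), and passed without DKO library 2 (-2.96, adjusted p = 0.0146). Kit at 9846 and 9961 also lay below WT without passing (-0.54 ± 0.19, adjusted p = 0.0807).

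Against Daxx-KO, 2 receptors were called in DKO, Flt3 lower and Csf3r higher, where 15.4% of all genes were called, 8.17% higher and 7.22% lower. Csf3r was at 2696 and 2160 normalized counts in DKO, within or above the WT range and above all Daxx-KO libraries (0.90 ± 0.15, 1.87-fold, adjusted p = 0.00366), and it did not pass without DKO library 1 (0.0540). Csf2ra lay below all Daxx-KO libraries without passing (-0.90 ± 0.37, adjusted p = 0.136). Kit, Csf1r, Epor (17.3 and 24.1 in DKO), Csf2rb, Il3ra and Il7r overlapped between DKO and Daxx-KO. The share of genes with non-overlapping groups was 49.7% in DKO against WT, where 5 of the 9 receptors were among them, and 44.6% in DKO against Daxx-KO, where 3 were.

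The DKO libraries also stood apart by markers. Neutrophil markers were summed at 137852 to 169606 normalized counts in DKO against 525 to 28273 in WT and 949 to 6350 in Daxx-KO, with 3 of 6 called higher against WT and 5 of 6 against Daxx-KO. GMP markers were summed at 106326 to 110215 against 4750 to 43993 and 3615 to 12730. Stem cell markers were lower than WT in 3 of 8 (18057 to 26242 against 49326 to 73605). The part of these markers in the receptor values was not tested.

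Other genes of the pathway were called in DKO but not in Daxx-KO against WT, where 0 genes of every pathway list passed; whether the 2 differ there is given by the DKO against Daxx-KO contrast. Of the 25 other cytokine receptors tested, DKO had 3 higher and 9 lower than WT and 3 higher and 11 lower than Daxx-KO. Tek, the angiopoietin receptor of stem cells, was at 135 to 172 in DKO against 713 to 1041 in WT (-2.53 ± 0.26, adjusted p = 0.000483). Btk, a kinase downstream of several receptors of this kind, was at 125 to 214 in DKO and 1114 to 1396 in WT and was called lower than WT (-2.96 ± 0.23) and than Daxx-KO (-3.02 ± 0.23). Of 11 JAK kinases and STAT factors 2 were lower than WT, Stat5a (-0.52 ± 0.16) and Stat5b (-0.48 ± 0.12), the main STATs of these receptors, and 0 differed from Daxx-KO. Of the adaptors and kinases 1 was higher and 3 lower than WT, and 2 higher and 1 lower than Daxx-KO, of 14. Of 15 negative regulators 2 were higher and 2 lower than WT, with Socs3, the inhibitor of the Csf3r pathway, at 265 to 326 against 30.01 to 157 (1.87 ± 0.57, adjusted p = 0.0489), and 3 were lower than Daxx-KO. Of 11 target genes 2 were higher and 1 lower than WT, and 1 higher and 3 lower than Daxx-KO, including Irf8 (169 to 185 against 536 to 2771). None of the 5 ligands tested was called in either contrast.

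In GMPs at 3 weeks none of the 8 receptors tested was called in any of the 3 contrasts, which again share libraries. The share of all 13714 genes called was 0.0948% in Daxx-KO against WT (0.0656% higher and 0.0292% lower), 0.292% in DKO against WT (0.211% higher and 0.0802% lower) and 0.0583% in DKO against Daxx-KO (0.0583% higher and 0% lower). At an unadjusted p under 0.05 the receptors numbered 3, 3 and 2, and all genes 433, 961 and 1104. edgeR called 0 receptors in each contrast and DESeq2 1 in each.

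For Flt3, Daxx-KO had 934, 756 and 1086 normalized counts, WT had 338, 715 and 174 and DKO had 106 and 187. The 3 Daxx-KO libraries lay above all others, 2.26 times the WT mean (1.39 ± 0.45, adjusted p = 1.00) and 6.32 times the DKO mean, and the WT and DKO libraries overlapped. The difference between DKO and Daxx-KO was -2.69 ± 0.50 (adjusted p = 0.104 by limma, 3.49e-05 by DESeq2). For Il7r, Daxx-KO had 54.7, 213 and 81.0, WT had 3.12, 10.6 and 2.18 and DKO had 165 and 8.88. Its Daxx-KO libraries were above WT without overlap (4.22 ± 0.99, adjusted p = 0.467 by limma, 0.000601 by DESeq2). B lineage markers were summed at 1082, 10003 and 782 in these Daxx-KO GMPs, at 255, 664 and 221 in WT and at 3766 and 258 in DKO, with a median of 2.65 in Daxx-KO against WT and 0 of 8 called. In each genotype, with 2 or 3 libraries, the GMP library highest in Il7r was highest in this sum. In Daxx-KO it carries the animal number of the KLS library that was highest in both. The part of these markers in the Il7r values was not tested.

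Csf2rb was at 5117 and 4348 normalized counts in DKO, above all Daxx-KO (2376, 3394 and 2567) and all WT libraries (3114, 2231 and 3155). It did not pass against WT (0.75 ± 0.23, adjusted p = 0.361) or Daxx-KO (0.78 ± 0.23, adjusted p = 0.314). Kit at 4025 and 3736 in DKO lay below WT (5086, 5957 and 4516; -0.41 ± 0.19, adjusted p = 0.739) and below Daxx-KO (5148, 4643 and 4960; -0.34 ± 0.19, adjusted p = 0.768). Csf2ra at 935 and 954 lay below WT (1161, 979 and 1568; -0.36 ± 0.22, adjusted p = 0.925) and within Daxx-KO (899, 1130 and 923). Csf1r (1198 to 2455), Csf3r (1633 to 3038) and Il3ra (262 to 523 over all 8 libraries) overlapped in each contrast. Epor, the erythropoietin receptor, was not tested, at 3.91 to 23.3. Genes with non-overlapping groups made up 8.10%, 18.6% and 20.7% of the table, and 2, 3 and 3 of the 8 receptors tested. No gene of the pathway lists was called in the 3 contrasts, among them 24 other cytokine receptors and 6 ligands.

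In the Pu.1 line, KLS cells of the libraries placed as Pu.1-KO had no receptor called by limma, where 0.81% of 23459 genes were called, 0.469% higher and 0.341% lower. Of the 9 receptors, 7 had non-overlapping groups, all lower in Pu.1-KO, against 65.6% of all genes, and 4 had an unadjusted p under 0.05, as did 6071 genes. edgeR called 1 of the 9 and DESeq2 0. The median log2 fold change was -1.26 over the receptors and 0.12 over all genes. This shift of the table is to be set against the values below. The median absolute change was 1.26 and 1.02. Pathway lists other than the ligands also had negative medians. Other cytokine receptors were at -0.59, JAK kinases and STAT factors at -0.86 and adaptors and kinases at -0.995. Negative regulators were at -0.78 and target genes at -0.95, while the ligands were at 1.05. Daxx itself was at -1.01 ± 0.57. Whether the receptors fell beyond these lists was not tested.

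Csf2ra was at 588 and 569 normalized counts in WT and at 261 and 85.1 in Pu.1-KO (-1.95 ± 0.59, adjusted p = 0.0595). Csf2rb was at 1475 and 1154 against 668 and 308 (-1.52 ± 0.58, adjusted p = 0.0997), and Epor at 172 and 168 against 58.5 and 28.2 (-2.04 ± 0.72, adjusted p = 0.0845). In each case the second Pu.1-KO library was lower than the first. Flt3 was at 6610 and 4975 against 2894 and 1226 (-1.61 ± 0.68, adjusted p = 0.131) and Kit at 11642 and 9582 against 7411 and 2636 (-1.26 ± 0.80, adjusted p = 0.284). Csf1r, at 996 and 725 against 597 and 443 (-0.72 ± 0.57), and Il3ra, at 339 and 197 against 184 and 124 (-0.77 ± 0.61), differed less. Csf3r (3088 and 2008 against 2344 and 885) and Il7r (393 and 227 against 340 and 232) overlapped. Without the first Pu.1-KO library 6 receptors were called, among them Flt3 (-2.23, adjusted p = 0.00279) and Csf2ra (-2.75, adjusted p = 0.00133), and the remaining single library is then assumed to vary like WT. Erythroid markers were called lower in 3 of 8 (1177 to 3712 against 5001 to 6550), and their part in the Epor values was not tested. The gate gene Ly6a was at 49.1 and 81.3 in Pu.1-KO against 130 and 116 in WT, and its part was not tested. Of the pathway lists only Pim1, a kinase gene induced by STAT5, was called (-2.31 ± 0.58, adjusted p = 0.0240), at 245 to 607 against 1254 to 2940.

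In GMPs of the Pu.1 line Epor and Csf2ra were lower and Il7r higher in Pu.1-KO, 3 of 9 receptors. Of all 19337 genes 17.6% were called, 9.15% higher and 8.49% lower. The median absolute log2 fold change was 0.53 over the receptors and 0.59 over all genes. Il7r was at 9.52 and 11.8 normalized counts in WT and 77.0 and 83.9 in Pu.1-KO, 7.56 times higher (2.81 ± 0.65, adjusted p = 0.000669). The groups were well apart, and B lineage markers were higher in 6 of 8, at summed counts of 3098 to 5344 against 1490 to 1619, with their part not tested. Csf2ra was at 1335 and 1430 in WT and 719 and 780 in Pu.1-KO, a fall of 0.88 ± 0.24 (1.84-fold, adjusted p = 0.00435), which did not pass without the first (0.253) or second (0.579) WT library. Epor was at 76.2 and 103 against 13.9 and 49.7, a fall of 1.71 ± 0.53 (adjusted p = 0.0133). It lost its call with TMM rescaling (0.0542), in edgeR (0.0989) and DESeq2 (0.0741), without the first (0.113) or second (0.541) WT library and without the first Pu.1-KO library (-0.82, adjusted p = 0.254), which had the least Epor. Erythroid markers were 3 higher and 3 lower of 8, summed at 1437 to 3835 in Pu.1-KO and 1851 to 3066 in WT.

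Kit was at 4618 and 5300 normalized counts in WT and 2980 and 3640 in Pu.1-KO (-0.59 ± 0.25, adjusted p = 0.0761). Flt3 at 237 and 340 against 200 and 206 (-0.48 ± 0.30, adjusted p = 0.245) and Il3ra at 311 and 328 against 179 and 273 (-0.53 ± 0.29, adjusted p = 0.184) also lay lower without passing. These 3 receptors and the 3 called ones were the 6 without overlap, against 65.0% of all genes. Csf1r (1516 and 1554 against 1134 and 1750), Csf3r (2837 and 3014 against 1726 and 3130) and Csf2rb (1709 and 2143 against 1592 and 1878) overlapped. Neutrophil markers were higher in 6 of 6 (164363 to 166862 against 29124 to 36445) and GMP markers lower in 4 and higher in 1 of 7, and their part was not tested. Gate genes other than Kit were also lower in both Pu.1-KO libraries. Fcgr3 was at 1033 and 1563 against 2058 and 2239, and Fcgr2b at 441 and 608 against 898 and 1001. Cd34 was at 258 and 377 against 594 and 842. The part of the gate in the receptor values was not tested.

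Along the pathway in these GMPs, Socs3 rose by 3.27 ± 0.50 (126 to 235 against 14.4 to 20.1) and the ligands Csf1 (273 to 381 against 77.2 to 124) and Kitl (106 to 172 against 39.2 to 45.5) rose, 2 of 14 negative regulators and 2 of 6 ligands. Stat5a, a STAT that these receptors share, fell by 1.17 ± 0.25 (398 to 634 against 1068 to 1203), the only 1 of 11 JAK kinases and STAT factors called. Of 11 target genes 3 were higher, with the cytokine Osm leading (320 to 384 against 80.4 to 114), and 3 lower, with Ccnd2 leading (570 to 631 against 1948 to 2267). Of 27 other receptors 2 were higher and 1 lower, and of 14 adaptors and kinases 3 were lower. Leaving out 1 library moved the count of all genes called between 151 and 8163.

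At 24 weeks Epor was lower in all 4 Daxx F/F libraries than in both WT libraries, in KLS cells and in GMPs. The columns of both cell types carry the same animal numbers, so these are not independent observations. In KLS cells it was at 274 and 323 normalized counts in WT and at 7.34, 72.1, 17.6 and 25.1 in Daxx F/F, a 9.78-fold difference in means (-3.68 ± 0.84, adjusted p = 0.123). In GMPs it was at 74.2 and 125 in WT and at 19.7, 10.1, 9.16 and 6.26 in Daxx F/F, an 8.82-fold difference (-3.09 ± 0.93, adjusted p = 0.0896). Neither passed in limma, while DESeq2 called both (0.00143 and 0.00410), and in KLS cells limma did so without the second Daxx F/F library (-4.23, adjusted p = 0.0246). Erythroid markers fell in the same libraries, 7 of 8 tested in KLS cells with a median of -4.41 and 8 of 8 in GMPs with a median of -4.02. Of this list, Alas2 was at 0 in every group of all 10 tables. The summed normalized counts of the list in KLS cells were 18897 and 22481 in WT against 1225, 1363, 642 and 1359. In GMPs they were 5322 and 8741 against 330, 227, 228 and 1501. The part of these markers in the Epor values was not tested.

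In KLS cells at 24 weeks none of the 9 receptors was called, where 0.807% of 16485 genes were called, 0.309% higher and 0.497% lower. At an unadjusted p under 0.05 there were 4 receptors and 1370 genes, and edgeR called 0 and DESeq2 2 of the receptors. Flt3 was at 8300 and 7225 normalized counts in WT and 11151, 11391, 10285 and 10038 in Daxx F/F, higher in every Daxx F/F library (0.47 ± 0.16, adjusted p = 0.373). By the labels these 4 libraries include DKO samples, and which ones is not shown. Il3ra was at 286 and 383 against 627, 655, 616 and 793 (1.01 ± 0.25, adjusted p = 0.156) and Csf3r at 2813 and 3433 against 4633, 4494, 4625 and 4351 (0.54 ± 0.16, adjusted p = 0.264). These and Epor were the 4 receptors without overlap, against 17.8% of all genes. Kit (19273 to 21595 against 15319 to 20600), Csf1r (462 and 663 against 225 to 1166), Csf2ra (553 and 662 against 409 to 810), Csf2rb (1446 and 2147 against 1386 to 3082) and Il7r (170 and 225 against 204 to 575) overlapped. Neutrophil markers were higher in 6 of 6 (51206 to 88592 against 9441 to 11624). No gene of the pathway lists was called.

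In GMPs at 24 weeks Csf2rb was the 1 receptor called, where 3.63% of 16894 genes were called, 2.23% higher and 1.4% lower. It was at 4359 and 4262 normalized counts in WT and at 6122, 5526, 5770 and 6246 in Daxx F/F, 1.37 times higher (0.46 ± 0.11, adjusted p = 0.0247). All 4 Daxx F/F libraries lay above WT, but the call was lost without the first (0.161) or second (0.181) WT library or without the fourth Daxx F/F library (0.0654). Csf1r was at 2145 and 2158 against 2709, 3607, 2698 and 3010 (0.47 ± 0.14, adjusted p = 0.0773), and Il3ra at 631 and 674 against 844, 1032, 911 and 1027 (0.54 ± 0.17, adjusted p = 0.110). Csf2ra, at 2926 and 2648 against 2494, 2244, 2027 and 1787 (-0.39 ± 0.14, adjusted p = 0.181), and Kit, at 10294 and 9185 against 8220, 8869, 7754 and 8638 (-0.22 ± 0.10, adjusted p = 0.321), lay lower. With Epor these made 6 receptors without overlap, against 24.8% of all genes. Flt3 (433 and 550 against 345 to 608), Csf3r (6062 and 6336 against 4618 to 7107) and Il7r (24.0 and 97.8 against 9.17 to 77.4) overlapped.

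Neutrophil markers were higher in 6 of 6 in these GMPs (267860 to 710966 against 89639 to 97119), lymphoid priming markers higher in 5 of 6 and megakaryocyte markers lower in 3 of 5, and their part in the receptor values was not tested. Of 26 other receptors Il18r1 and 1 more were higher and Tek was lower (13.6 to 54.7 against 213 to 276). Of 11 target genes 3 were higher, among them Id1 (149 to 351 against 57.0 to 93.9) and Irf8 (7635 to 11417 against 5378 to 5974), and the other pathway lists had 0 called.

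**Figure D5:**
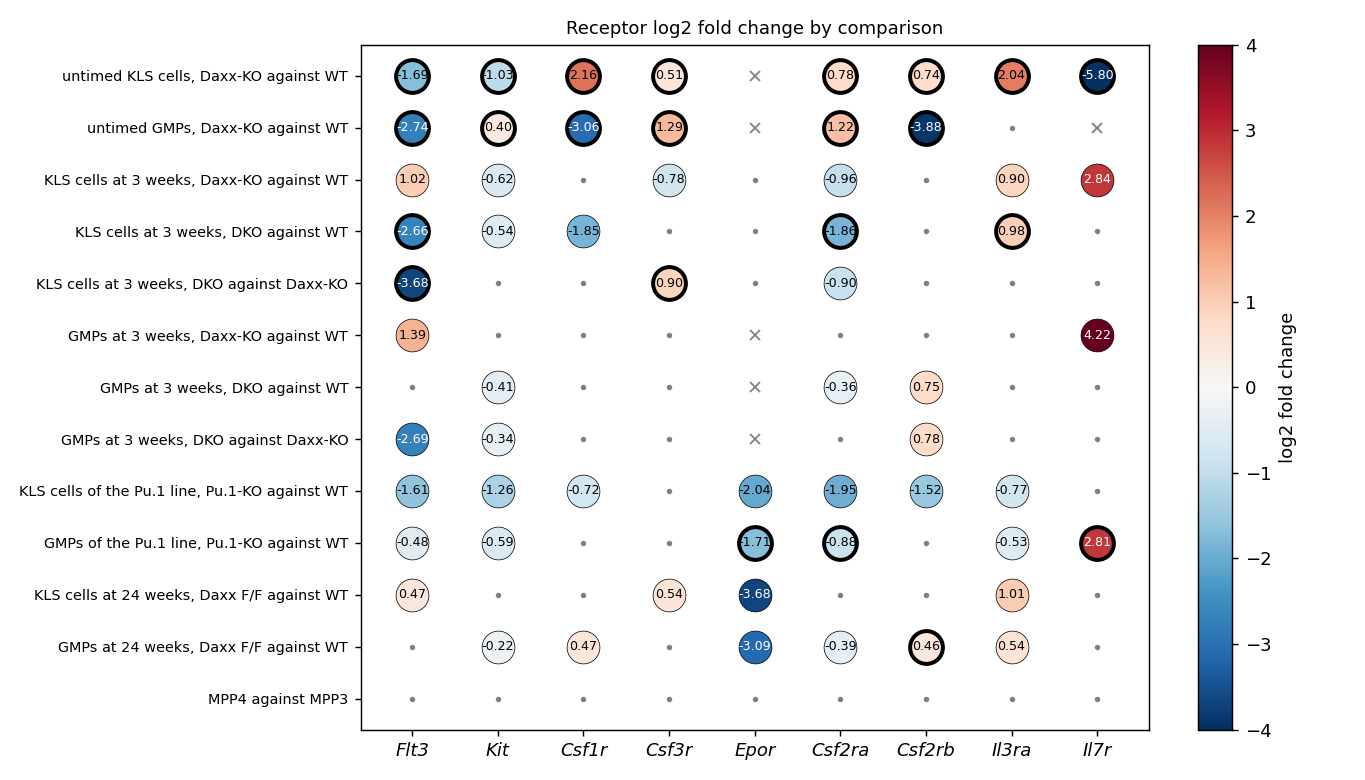
Log2 fold change of each receptor (columns) in the 13 comparisons (rows), by the colour of a circle on a scale that ends at 4 in each direction, where a thick outline marks an adjusted p under 0.05, a thin one groups that do not overlap without a call, a dot overlapping groups and a cross a gene too low to be tested. Calls fill the untimed comparisons, 8 of 8 and 6 of 7 receptors, and are few at 3 and 24 weeks.

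In the 7 LT-HSC libraries, whose genotypes the column names do not show, values are given over all libraries without a comparison. Flt3, whose protein was gated out, still had a lowest value of 319, a median of 596 and a highest value of 1001 normalized counts. Kit was at 6133, 7002 and 9694 and Csf3r at 412, 618 and 1122 (lowest, median and highest). Csf2rb was at 387, 692 and 1332 and Csf2ra at 69.5, 228 and 339. The myeloid receptor Csf1r, at 18.9, 45.6 and 188, and Il3ra, at 47.7, 76.6 and 202, were low. Epor had a lowest value of 40.9, a median of 65.2 and a highest of 214, and Il7r was above 0 in only 2 libraries, at 3.15 and 9.46.

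MPP3 and MPP4 came from the same 4 animals, whose genotypes are not shown. None of the 9 receptors was called between them, and neither was any gene, 0% of 20137 (0% higher and 0% lower). At an unadjusted p under 0.05 there were 1 receptor and 107 genes, and edgeR and DESeq2 also called 0 genes, with 27 and 132 at an unadjusted p under 0.05. MPP3 were sorted as Flk2- and MPP4 as Flk2+, so the sort itself sets the Flt3 difference, and both were sorted as Il-7Ra-, so the values of Flt3 and Il7r are a description. Flt3 was at 3333, 2533, 3080 and 3277 normalized counts in MPP3 and 4734, 3211, 6469 and 5734 in MPP4 of the same animals. It was higher in MPP4 in 4 of 4 animals, by 1.42, 1.27, 2.10 and 1.75 times, although 1 MPP4 library lay within the MPP3 range. Il7r was at 37.1, 58.3, 0 and 16.5 in MPP3 and 137, 28.5, 89.2 and 181 in MPP4, higher in 3 of 4 animals. Kit was at 11522, 6538, 5668 and 8315 against 5103, 8350, 4720 and 5523, lower in MPP4 in 3 of 4.

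The other receptors overlapped between MPP3 and MPP4. Csf1r was at 109 to 761 normalized counts in MPP3 and 379 to 1189 in MPP4, and Csf3r at 1403 to 1842 and 1079 to 1679. Csf2ra was at 81.8 to 167 and 125 to 307, Csf2rb at 708 to 1174 and 787 to 854, and Il3ra at 110 to 409 and 141 to 286. Epor spanned 0.71 to 102 in MPP3 and 0 to 38.6 in MPP4. By level per kilobase of exon, Kit led in MPP3 at 83.5, without overlap with Flt3 at 46.1 (36.3 to 50.4), which overlapped Csf3r at 41.5. In MPP4 Flt3 led at a level of 77.3 (52.8 to 102) and overlapped Kit at 63.7 (48.2 to 95.2), and both lay above Csf3r at 35.1. Per kilobase of coding sequence Kit came before Flt3 in MPP4, and 6 of 9 receptors took another rank.

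The genes closest in pattern to Flt3 were sought over 16 KLS libraries of the untimed, 3-week and Pu.1 line tables, among 9775 genes, by the root mean square difference of log2 values centred within each table. Cd34, a surface marker of progenitors, was closest at 0.377, followed by Gm16897 at 0.491, Clnk at 0.502, Btk at 0.539 and Adgrl4 at 0.550, where the median gene was at 1.19. In KLS cells at 3 weeks Daxx-KO had 2777, 2527.5 and 2931 normalized counts of Cd34, WT had 2541, 2091 and 2187 and DKO had 235 and 554. It shared with Flt3 the low DKO libraries, but its Daxx-KO and WT libraries overlapped. The nearest gene was Dapp1 for Kit (0.113), Clta for Csf2rb (0.130), Plcb2 for Csf3r (0.154), Cdkn2c for Il3ra (0.260), Fzd7 for Csf2ra (0.340), D330041H03Rik for Epor (0.476), Nxpe5 for Csf1r (0.537) and Cmah for Il7r (0.659). The points share libraries and table-wide shifts, so these distances are a description.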

How the data were processed

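Cells were sorted from mouse bone marrow and total RNA was sequenced. The labels name Trizol extraction and Ovation SoLo libraries. The study's methods name these for cells of transplanted animals. For LT-HSCs and for the cells taken at 3 and 24 weeks they name a NucleoSpin extraction and a SMARTer stranded kit. Labels and methods thus differ, and which of them holds for a given library was not settled. Per the labels, the authors used CASAVA 1.8.4, cutadapt 1.13, STAR 2.5.3 and DESeq2 1.16.1 on mm10. The deposited gene tables hold counts divided by size factors, a signal from which whole reads were recovered for 100.0% of values above 0 (within 0.01). In units of M gene reads (M for mega), library depth was 3.86 to 22.6 (untimed KLS), 3.39 to 17.3 (untimed GMP), 11.4 to 15.8 (KLS) and 11.8 to 13.7 (GMP) at 3 weeks, 13 to 19.1 and 10.7 to 15 (Pu.1 line), 18.2 to 30.1 and 15.5 to 29.4 (24 weeks), 4.49 to 17 (LT-HSC) and 3.05 to 17.9 (MPP). A receptor at 10 normalized counts therefore rests on few reads. The 8 tables of repeats (52 columns) were not used, and no 2 libraries were identical.

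limma 3.58.1 (R 4.3.3) was fitted with a mean-variance trend to log2(value + 1) of genes with a mean of 10 or more, all genotypes of a table together, with Benjamini-Hochberg adjustment over all genes tested and 0.05 as the threshold. Fold changes are on the log2(value + 1) scale, which understates the change of low genes, and those of receptors are given only where the receptor was called or its groups did not overlap. Alternatives were an added count of 10, no filter, TMM rescaling, edgeR 4.0.16 quasi-likelihood and DESeq2 1.42.0 on the recovered reads, only the genotypes compared, a replicate block and leaving out each library. At 3 weeks the count tools and the replicate block left out the WT KLS library placed by its column ending, for which recovered reads could not be told from rounding and which has no number. The 24-week comparison was set after the column names were seen. MPP3 and MPP4 of 1 animal are paired by the animal number in the column names, and the correlations of their deviations were -0.444, -0.0370, 0.422 and 0.547; blocking by animal called 0 genes, with 290 at an unadjusted p under 0.05.

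The 9 receptors, the pathway lists (ligands, other cytokine receptors, JAK kinases and STAT factors, adaptors and kinases, negative regulators, target genes) and the cell type markers were chosen with earlier results of these data known. All receptors are named, with at most 2 called genes per list and comparison, those of largest absolute change, and Csf2rb2; 1 such gene is not reported here. Whether libraries of one group came from separate animals is stated only in part, so p-values measure the spread between these libraries. The fit was tested on simulated data.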

Additional observations from a re-analysis of the deposited data

Results flagged for a closer look

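In 45 groups of 4 to 10 libraries, 3 receptor values lay far from the other libraries of their group by Dixon's criterion at 95%, which chance meets in about 1 in 20 groups. Il7r was at 77.4 normalized counts in the fourth Daxx F/F library of GMPs at 24 weeks, Epor at 214 in the fourth LT-HSC library and Il7r at 9.46 in the third LT-HSC library.

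In 8 pairings of a receptor with 2 comparisons, every Daxx-KO library lay on one side of WT in one comparison and on the opposite side in the other. The differences between comparisons were not tested. The untimed and 3-week tables may also differ in transplantation and library kit, as described above. Between untimed KLS cells and untimed GMPs, the log2 fold changes were -1.03 and 0.40 for Kit, 2.16 and -3.06 for Csf1r, and 0.74 and -3.88 for Csf2rb. Between untimed KLS cells and KLS cells at 3 weeks, they were -1.69 and 1.02 for Flt3, 0.51 and -0.78 for Csf3r, 0.78 and -0.96 for Csf2ra, and -5.80 and 2.84 for Il7r. Between untimed GMPs and GMPs at 3 weeks, Flt3 was at -2.74 and 1.39. The 3-week values of these receptors did not pass the adjusted test.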

How the results depend on the processing

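Of the 59 receptor fold changes given, 23 were called, and over 244 alternatives of these 203 kept the call, 41 lost it and 0 changed direction. Of the 637 alternatives in all, 34 gave a call to a receptor that had none. The count of receptors called moved as follows. DESeq2 called 5 in KLS cells at 3 weeks in Daxx-KO against WT, without the WT library placed by its column ending (limma 0 with or without it), 1 in each of the 3 contrasts of GMPs at 3 weeks (limma 0), 2 in KLS cells (limma 0) and 3 in GMPs (limma 1) at 24 weeks. Fitting only the 2 genotypes gave 2 in KLS cells at 3 weeks, TMM and edgeR gave 1 each in KLS cells of the Pu.1 line (limma 0), and an added count of 10 and edgeR each gave 2 in GMPs at 24 weeks. Leaving out 1 library gave 2 to 8 receptors in untimed KLS cells, 1 to 4 in DKO against WT and 1 to 2 in DKO against Daxx-KO at 3 weeks, 0 to 6 in KLS cells and 1 to 7 in GMPs of the Pu.1 line, and 0 to 1 in KLS cells and 0 to 1 in GMPs at 24 weeks. Where 1 library of a group is left, it is assumed to vary like the other groups. The cause of these moves was not tested, apart from the fewer libraries left.

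Over all genes, limma called 39 in KLS cells at 3 weeks in Daxx-KO against WT and 137 without the WT library placed by its column ending, which edgeR (63) and DESeq2 (604) also left out. It called 3118 in untimed KLS cells and 1751 without the filter. In GMPs at 3 weeks DESeq2 called 80, 262 and 278 genes against 13, 40 and 8, only 2 genotypes gave 5 in DKO against WT and 0 in DKO against Daxx-KO, and the last contrast had 20 with an added count of 10, 18 with TMM, 20 with edgeR and 13 without the filter. In the Pu.1 line, limma called 190 in KLS cells (110 higher and 80 lower), TMM 1599 (1272 and 327), edgeR 1920 (1677 and 243), DESeq2 1357 (954 and 403) and an added count of 10 gave 110 (55 and 55). The median of all genes there was at 0.12, and at 0.26 with TMM. At 24 weeks DESeq2 called 533 genes in KLS cells, where limma called 133, and 1033 in GMPs, where limma called 613. Leaving out 1 library gave 419 to 3290 genes in untimed KLS cells (3118 with all), 2162 to 4448 in untimed GMPs (4209), 13 to 6905 in KLS cells (190) and 151 to 8163 in GMPs (3412) carrying the Pu.1 alleles, and 5 to 220 in KLS cells (133) and 79 to 730 in GMPs (613) at 24 weeks. At 3 weeks it gave 8 to 137 (39), 574 to 2975 (2681) and 672 to 2481 (2340) genes in KLS cells and 4 to 11 (13), 2 to 90 (40) and 0 to 71 (8) in GMPs, for Daxx-KO against WT, DKO against WT and DKO against Daxx-KO.

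The replicate numbers of the labels did not pair the libraries, with correlations of same-numbered deviations of -0.0095 in untimed KLS cells, -0.111 in untimed GMPs and -0.214 to 0.126 in KLS cells at 3 weeks. A replicate block called 3343 genes in untimed KLS cells, 81, 2105 and 1283 in the KLS contrasts at 3 weeks, where it also left out the WT library without a number (the same libraries without the block gave 137 and 2975 in the contrasts with WT), and 3722 in untimed GMPs (4209 without it), where crossing the numbers, chosen after seeing the data, called 4921. Epor in both untimed tables and in GMPs at 3 weeks, and Il7r in untimed GMPs, were not tested because their mean normalized count was under 10.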
